A study of Mus musculus with 2 samples.

Results

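The genes described here write, keep, read or remove DNA methylation, the methyl mark on cytosine that helps to hold a gene silent: Dnmt1, Uhrf1, Dnmt3a, Dnmt3b, Dnmt3l, Tet1, Tet2, Tet3 and Mbd2. They were taken by gene name from the annotation of the array, and all 9 had at least 1 probe, which makes 19 of the 55676 probes and 9 of the 34817 gene names. Regulatory T cells, CD4 T cells that restrain immune responses, were sorted from wild-type and from Nr4a-TKO mice, both 5 weeks old, and total RNA of each was hybridised to 1 Agilent mouse array in a single colour, Cy3. Nr4a1, Nr4a2 and Nr4a3 are orphan nuclear receptors, transcription factors that T cells induce on antigen receptor stimulation, and the series title ties them to the Treg transcriptional program. The labels do not say how the genes were altered, in which cells, how many mice were pooled or which markers were sorted on. With 1 array per genotype there was no replicate, so no difference could be tested and every value compares these 2 arrays.

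DNA methyltransferases of the Dnmt3 family place new methyl groups, Dnmt1 copies the pattern onto the daughter strand after replication, and Uhrf1 brings Dnmt1 to the hemimethylated sites left by the replication fork. TET enzymes oxidise methylated cytosine, which leads to its loss through dilution or repair, and Mbd2 binds methylated DNA and brings in the NuRD repressor complex. In Treg cells the conserved intronic enhancer of Foxp3 is kept free of methylation, a state that TET enzymes help to set and that stabilises Foxp3 expression. The arrays measured RNA only, and neither methylation nor protein was measured.

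None of the 9 genes differed by 2-fold between the arrays. The de novo enzymes Dnmt3a and Dnmt3b were lower in the array labelled Nr4a-TKO, by 1.51-fold and 1.47-fold, and Tet2 was higher by 1.53-fold. Dnmt1, Uhrf1, Tet1, Dnmt3l and Mbd2 lay within 0.23 of 0 on the log2 scale. Tet3 gave opposite directions at different probes. Values are log2 signals less the 75th percentile of their array, differences subtract wild-type from the array labelled Nr4a-TKO, and each gene is represented by its brightest probe.

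All 9 genes were well above background on both arrays at every probe. Among the 23416 gene names that met this at their brightest probe, 3.15% passed 2-fold on the higher side and 3.06% on the lower side, against 0 of the 9 genes on either. At 1.5-fold the shares were 8.37% and 7.37% of gene names, against 1 gene higher (Tet2) and 1 lower (Dnmt3a). These calls sat at the edge of the threshold: Tet2 came under 1.5-fold in 7 of 12 alternatives, and Dnmt3b, just under it here, passed it in 6. Among these alternatives, the filters on dim probes and the accession names left the value of each of the 9 genes as it was. By any amount 6 of the genes were higher and 3 lower, beside 59.6% and 40.4% of gene names. The median difference over the 9 genes was 0.04, beside 0.08 over all gene names, whose SD was 0.56. As a group these genes lay near the centre of all gene names.

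Some measurements on the arrays as a whole bear on the label and the cells. In the array labelled Nr4a-TKO the signal of Foxp3, the factor that defines Treg cells, was 17.2-fold lower (10.3-fold with normexp background correction), and it was well above background on both arrays. Of the 8 Treg markers checked, 4 were at least 2-fold lower and 0 at least 2-fold higher. By any amount 7 of them were lower and 1, Gpr83, was higher, by 0.20. Of the 7 T cell markers measured, 6 were lower by any amount. Over all gene names 3.06% were at least 2-fold lower and 40.4% lower by any amount. Nr4a3 was 7.04-fold lower (3.26-fold with normexp), whereas Nr4a1 differed by 0.06. Nr4a2 was higher at both probes, by 2.54-fold and 2.05-fold (2.28-fold and 1.66-fold with normexp). As the labels do not say how these genes were altered, the signals do not show whether they were. The genotype therefore stands here as a label only. Xist, the RNA of the inactive X chromosome of female cells, was brighter in the array labelled Nr4a-TKO at 7 of 7 probes. Of Y-linked genes, Ddx3y was 3.63-fold and Eif2s3y 1.97-fold lower there. Uty was 1.52-fold and 2.71-fold lower at its probes (1.12-fold and 1.49-fold with normexp). Each of these Y-linked probes was well above background on both arrays. None of the 9 genes lies on the X or Y chromosome. Markers of other cells also differed. Where a probe was well above background on 1 array only, a fold given as at least is a lower bound in the main setting. The bound is taken against the dimmest probes called well above background. Of 6 erythroid and platelet markers, Hba-a1 and Hbb-b1 passed the background call in wild-type only and the other 4 on neither array, with Hbb-b1 at least 3.01-fold lower in the second. Of 6 granulocyte and mast cell markers, Mpo was 7.76-fold lower (3.04-fold with normexp) and Ly6g 6.72-fold higher, S100a8 and S100a9 were well above background in wild-type only and at least 2.61-fold and 3.02-fold lower, Elane differed by -0.07, and Cpa3 passed the background call on neither array. With normexp, S100a8, S100a9 and Hbb-b1 were lower by 1.80-fold, 1.89-fold and 1.82-fold, below these bounds, which hold for the main setting only. Klrd1, of 6 CD8 T and NK cell markers, was well above background in wild-type only and at least 6.25-fold lower (3.33-fold with normexp). The other markers of that list did not differ by as much. Cd8b1, Cd8a and Ncr1 differed by -0.64, -0.18 and -0.11, Prf1 by 0.10, and Klrb1c passed the background call on neither array. Of 6 B cell markers 3 were well above background on both arrays, with Cd79b 2.51-fold higher. Of 6 epithelial and stromal markers, Col1a1 passed the call in the array labelled Nr4a-TKO only, at least 2.5-fold higher (1.51-fold with normexp). Krt18 was 2.43-fold higher (1.91-fold with normexp) and Pecam1 1.63-fold lower. Epcam and Col1a2 differed by -0.18 and -0.19, and Krt8 passed on neither array. Of 5 macrophage and dendritic cell markers measured on both arrays, 3 were higher and 2 lower. Among these 0 passed 2-fold, and Cd68 differed most, 1.47-fold higher. The part of Foxp3 level, sex-linked RNA or other cells in the differences below was not tested. In sorted cells a lower signal can reflect fewer cells that express a gene or less RNA per cell, and these cannot be told apart.

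**Figure D1:**
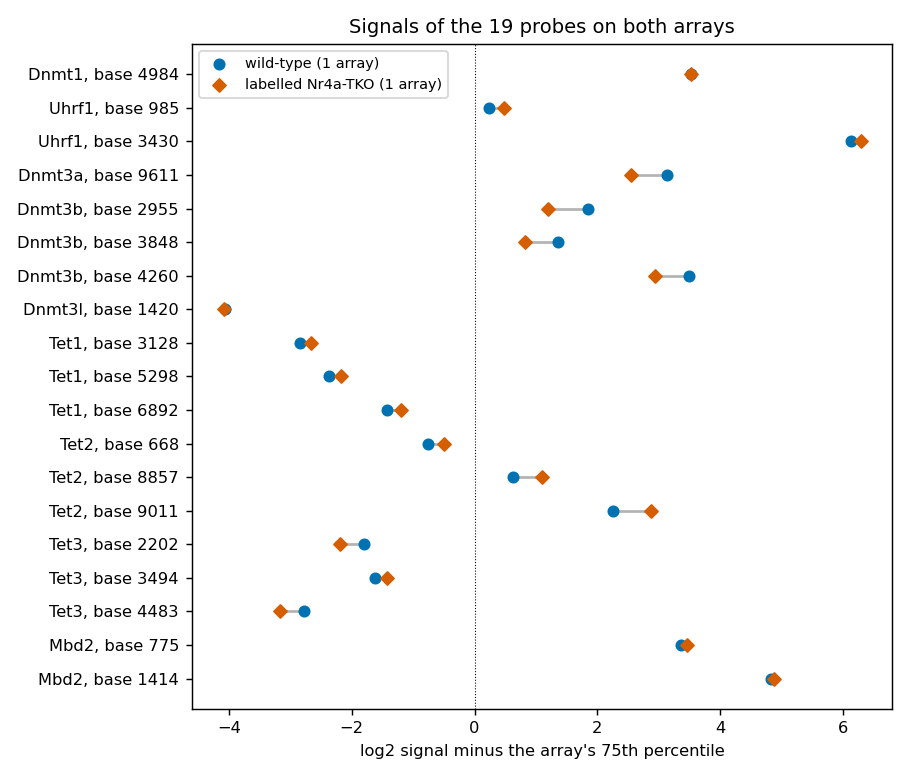
Log2 signal less the 75th percentile of the array (x axis) for each of the 19 probes (y axis, gene and start base in the transcript), with circles for wild-type and diamonds for the array labelled Nr4a-TKO. The diamonds lie to the left of the circles at the Dnmt3a probe, the 3 Dnmt3b probes and 2 of the 3 Tet3 probes, and to the right at all 3 Tet2 probes. Positions along the x axis compare the arrays within a probe and not the genes with each other.

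The maintenance pair came first. Dnmt1 was read by 1 probe at base 4984 of its transcript, on chromosome 9 at 20711973 to 20712341 of build mm9. The 60 bases of this probe span 369 bases of genome, so it crosses an intron and matches spliced RNA. Its scanner signal was 9578 in wild-type and 8682 on the second array, which after scaling gave 3.53 on both, a difference of 0.0017 on the log2 scale. That is far smaller than the error of 0.20 that the scanner software assigns to the difference, a technical error within the arrays that holds no variation between mice. The sign of so small a value carries nothing, and it turned or was lost in 8 of 12 alternative settings. The deposited table, among these 8, gave a difference of 0.

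Uhrf1 was bright, with scanner signals of 58492 in wild-type and 58772 in the array labelled Nr4a-TKO at its probe on chromosome 17 at 56462770 to 56462829. The scaled values were 6.14 and 6.29, a difference of 0.15. Its second probe, assigned to transcript variant 3 and spanning an intron at 56451668 to 56452321, was dimmer (signals of 973 and 1053) and differed by 0.26. Both probes were thus slightly higher, by amounts close to the scanner error of 0.20. The representing probe turned to the lower side with quantile normalization, loess or centring on spike-in controls.

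Because Dnmt1 and Uhrf1 are used in step with DNA replication, S phase genes were set beside them. Of 20 such genes, 0 passed 2-fold in either direction and their median difference was 0.04, a sign that turned in 5 alternatives. The replication clamp gene Pcna, which also carries Dnmt1 at the fork, differed by 0.0087, and the ribonucleotide reductase subunit gene Rrm2 was 1.38-fold higher, the largest difference of the list. Mcm3, a helicase subunit, differed by -0.33 at its brighter probe and 0.61 at the other. Genes of mitosis and G2 stood apart. All 14 were higher, 7 of them at least 2-fold, with a median of 0.94, and each of the 14 was higher in every setting. Over all gene names 59.6% were higher by any amount and 3.15% at least 2-fold higher, with a median of 0.08. The count of the 14 genes past 2-fold was less steady and was 3 with spike-in controls as the centre. Ccnb1, the cyclin of mitotic entry, led them at 2.88-fold, followed by Ccnb2 at 2.58-fold, Cdc20 at 2.46-fold and Aurka at 2.32-fold. Cenpf was higher by 2.19-fold, Bub1b by 2.11-fold and Plk1 by 2.01-fold. The differences of 0.0017 for Dnmt1 and 0.15 for Uhrf1 are set beside these medians as a description only.

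The de novo enzymes were lower. Dnmt3a was read by 1 probe at base 9611 of its transcript, on chromosome 12 at 3914320 to 3914379. Its signal was 7321 in wild-type and 4379 in the array labelled Nr4a-TKO, or 3.14 and 2.54 after scaling. The difference of -0.60 exceeds the scanner error of 0.20, and 7.14% of gene names had a lower value. Over the 12 alternatives it ranged from -0.60 to -0.87, always lower. The filters, the accession names and the mean over probes could not move it, as Dnmt3a has 1 probe.

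Dnmt3b had 3 probes, which gives a check that Dnmt3a lacks. They begin at bases 2955, 3848 and 4260 of one transcript and lie on chromosome 2 between 153512098 and 153513462. Their spacing is the same in the transcript and in the genome (893 and 412 bases), so no intron separates them. The brightest, at base 4260, gave a signal of 9391 in wild-type against 5771, or 3.50 and 2.94 after scaling. At base 2955 the scaled values were 1.84 and 1.19, and at base 3848 they were 1.35 and 0.83. The differences were therefore -0.65, -0.53 and -0.56 in order along the transcript. All 3 probes were lower by similar amounts, and their range of 0.12 is below the median gap of 0.25 seen between probes of one gene over 6792 genes. The representing probe ranged from -0.56 to -0.83 over the alternatives.

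Dnmt3l, a family member without catalytic activity that stimulates Dnmt3a and Dnmt3b in germ cells, was near the floor of detection. Its signals were 49.5 in wild-type and 44.3 on the second array, or -4.07 and -4.09 after scaling, where the dimmest probes called well above background lay at -5.08 and -4.75. The difference was -0.018 with a scanner error of 0.36, the widest of the set. At this signal a difference of the size seen for Dnmt3b could not be read with the same confidence, and a stricter filter on dim probes removed Dnmt3l.

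**Figure D2:**
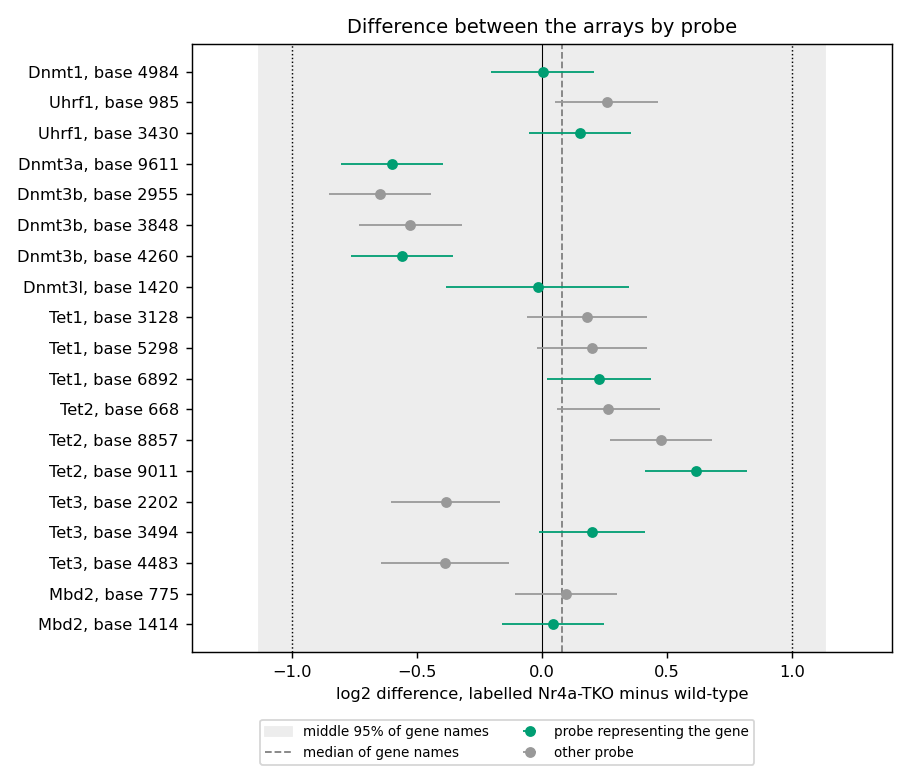
Log2 difference between the arrays (x axis, labelled Nr4a-TKO minus wild-type) for each of the 19 probes (y axis), with bars for the scanner's own error of the difference, a grey band for the middle 95% of gene names and dotted lines at 2-fold. The Dnmt3a and Dnmt3b probes sit between -0.65 and -0.53, the Tet2 probes between 0.26 and 0.61, and all 19 lie inside the band.

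Tet2 and Dnmt3a had the largest differences, of nearly equal size, and that of Dnmt3a was the larger in 8 of 12 alternatives. Its brightest probe, at base 9011 of the transcript on chromosome 3 at 133126751 to 133126810, gave signals of 3965 in wild-type and 5497 in the array labelled Nr4a-TKO. After scaling these were 2.25 and 2.87, a difference of 0.61 with a scanner error of 0.20, and 7.70% of gene names had a higher value. A neighbouring probe 154 bases upstream, at 133126905 to 133126964, gave 0.63 and 1.11, a difference of 0.48. The third probe was designed to a cDNA clone from dendritic cells, at 133176421 to 133176479, and gave -0.75 and -0.49, a difference of 0.26. All 3 were higher, the pair on the main transcript by more than the clone probe. Over the alternatives the representing probe stayed higher, from 1.27-fold with spike-in controls as the centre to 1.53-fold, and as the mean of its probes Tet2 was higher by 1.37-fold.

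Tet1 was dim and slightly higher at every probe. Scaled values at base 6892, on chromosome 10 at 62274448 to 62274507, were -1.42 in wild-type and -1.20 on the second array, a difference of 0.23. The probe at base 5298 gave -2.38 and -2.18, and the probe at base 3128 of transcript variant 2 gave -2.85 and -2.67, for differences of 0.20 and 0.18. The 3 differences are close to each other and to their scanner errors, and the direction turned with spike-in controls as the centre.

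Tet3 was the member whose probes disagreed. At base 3494, on chromosome 6 at 83319720 to 83319779, scaled values were -1.62 in wild-type and -1.42 in the array labelled Nr4a-TKO, a difference of 0.20. At base 4483 they were -2.78 and -3.17, and at base 2202 they were -1.80 and -2.19, for differences of -0.39 at both. One probe was higher and a pair lower, so the direction of Tet3 depended on the probe, and as the mean of probes it differed by -0.19. The probes at bases 3494 and 4483 are 989 bases apart in both transcript and genome, with no intron between them, yet differed by 0.59 from each other. The probe at base 2202 lies 33023 bases away in the genome. To show what was read, the first 30 of the 60 bases of each probe are given, in the order of the transcript and as the array annotation writes them, all in lower case.
Tet3 base 2202: accaaggctgagaacccactcacaccaacc
Tet3 base 3494: gccctccctcaaggtggagcctcagaacca
Tet3 base 4483: ccctgaaaggtggacctgggttccaagaca
The probes have similar base composition, with 53.3% G and C at bases 2202 and 3494 and 55% at base 4483. Their signals in wild-type were 238, 270 and 121, all well above background, so the disagreement is not one between a measured and an undetected probe.

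**Figure D3:**
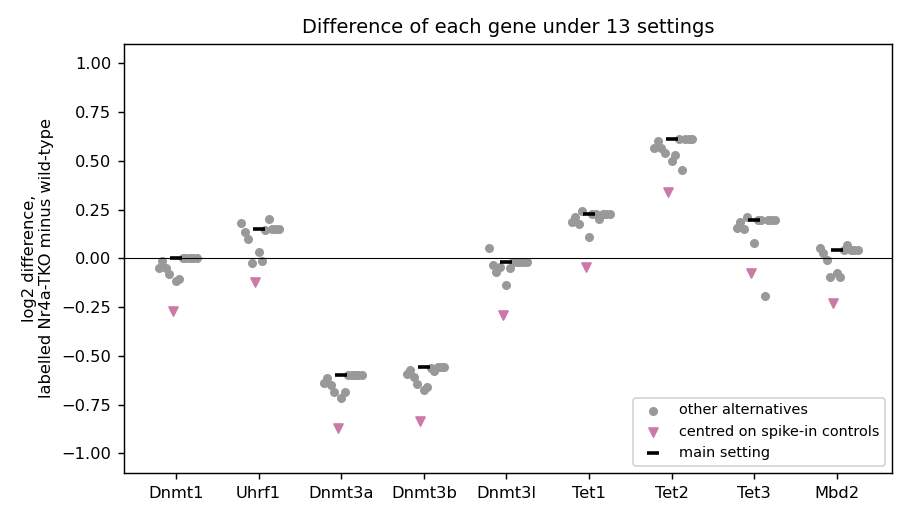
Log2 difference of each gene (y axis, labelled Nr4a-TKO minus wild-type) under the main setting (black bar) and 12 alternatives (grey points, with triangles for centring on spike-in controls). Dnmt3a and Dnmt3b stay below 0 and Tet2 above 0 in all 13 settings, whereas each of the other 6 genes has at least 1 setting on the opposite side.

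A new centre moves every gene together and leaves the contrast between a pair of genes as it was. The filters on dim probes and the accession names also left it, as did the deposited table apart from rounding. Only normexp, loess, quantile normalization and the mean over probes could move it, so the ranges below rest on these. Dnmt3a, Dnmt3b and Tet2 were chosen for this contrast after their values were seen. Relative to Dnmt3a, Tet2 was 2.32-fold higher in the array labelled Nr4a-TKO than in wild-type (log2 1.21, scanner error 0.29), and relative to Dnmt3b it was 2.26-fold higher. Over the alternatives these contrasts ranged from 1.05 to 1.23 and from 1.03 to 1.19 on the log2 scale. Dnmt1 relative to Dnmt3a gave 0.60, with a range of 0.58 to 0.60. Both genes have 1 probe, so the mean over probes could not move this contrast. Not every contrast was so steady: Tet2 relative to Tet3 ranged from 0.33 to 0.64, a span of 0.31 against 0.27 for Tet2 alone. The ratios between these genes therefore differed between the arrays, which does not show which gene was unaltered.

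The start sites of the 3 genes with the largest differences are rich in CG, the dinucleotide that these enzymes act on, as are start sites of members that differed little. The windows below run from 250 bases before to 50 bases after a start site, from RefSeq on build GRCm38.p6, with each CG in capitals, and they show how dense the substrate is at these genes. The Dnmt3a window is the first of 3 listed, chr12:3806730-3807029 on the plus strand. That of Dnmt3b is chr2:153649199-153649498 on the plus strand, and that of Tet2 is chr3:133544341-133544640 on the minus strand.
Dnmt3a: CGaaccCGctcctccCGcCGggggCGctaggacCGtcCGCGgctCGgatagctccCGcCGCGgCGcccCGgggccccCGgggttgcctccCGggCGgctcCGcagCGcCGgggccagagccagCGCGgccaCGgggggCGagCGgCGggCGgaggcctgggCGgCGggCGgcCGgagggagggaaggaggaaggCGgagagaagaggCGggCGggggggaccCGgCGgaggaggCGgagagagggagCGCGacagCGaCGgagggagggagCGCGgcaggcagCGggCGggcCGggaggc
Dnmt3b: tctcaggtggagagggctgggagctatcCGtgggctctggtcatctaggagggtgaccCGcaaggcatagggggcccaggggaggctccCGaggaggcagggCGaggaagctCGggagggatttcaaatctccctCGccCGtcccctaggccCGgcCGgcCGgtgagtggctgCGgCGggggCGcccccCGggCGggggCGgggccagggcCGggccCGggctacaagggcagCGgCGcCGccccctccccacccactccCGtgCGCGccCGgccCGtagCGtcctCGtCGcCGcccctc
Tet2: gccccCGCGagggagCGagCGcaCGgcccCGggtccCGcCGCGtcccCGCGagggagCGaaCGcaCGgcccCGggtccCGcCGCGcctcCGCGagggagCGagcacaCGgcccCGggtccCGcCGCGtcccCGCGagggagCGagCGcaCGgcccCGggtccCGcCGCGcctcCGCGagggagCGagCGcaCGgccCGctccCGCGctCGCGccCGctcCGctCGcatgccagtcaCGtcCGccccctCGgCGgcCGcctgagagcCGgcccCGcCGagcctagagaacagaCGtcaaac
The Tet2 window holds 57 CG, and 99.85% of 32851 windows of the same length hold fewer. The Dnmt3a window holds 46 and the Dnmt3b window 30, where the median window holds 7. The other Dnmt3a windows hold 47 and 18. The richest windows of Dnmt1 and Uhrf1 hold 33 each, more than that of Dnmt3b, and the Tet3 window holds 22. Of the 15 windows found for 8 of the genes, 11 held more than the median, and the 3 windows of Dnmt3l held only 6, 4 and 3. The recognition sequence of NR4A monomers, AAAGGTCA, searched on both strands, was in 0 of the 15 windows and in 1.51% of all windows. The E2F sequence TTTGGCGC was in 1 window of Dnmt1 and in 0.514% of all windows, and TTTCCCGC in 0 and 1.07%. A match or its absence in 300 bases describes letters only and says nothing of binding.

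Mbd2, the reader, was bright and nearly equal on the arrays. Its probe at base 1414 of the transcript gave signals of 23615 in wild-type and 22019 in the array labelled Nr4a-TKO, or 4.83 and 4.87 after scaling, and its probe at base 775 gave 3.36 and 3.45. The probes are 44944 bases apart in the genome on chromosome 18 and differed between the arrays by 0.04 and 0.10, within the scanner error of 0.20. The sign at the brighter probe turned in 5 of the alternatives.

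Of the 11 NuRD partners of Mbd2, 0 passed 2-fold, and 7 were higher and 4 lower by any amount with a median of 0.12, which was below 0 in 3 alternatives. Over all gene names 59.6% were higher and 40.4% lower by any amount, with a median of 0.08. The largest differences of the NuRD list were -0.30 for the histone-binding subunit gene Rbbp4 and -0.29 for Mta3, with 0.26 for Rbbp7 and 0.24 for Mta1. Probes of Rbbp4 reached -3.08 and those of Mta3 1.03, so single probes of these genes went further or the other way. Other readers of methylated DNA were also split, with 4 higher, 4 lower and a median of -0.0023. Zbtb4, a zinc finger protein that binds methylated CG, was lower by 1.93-fold at its brightest probe, with its 3 probes from -0.95 to -0.33. The related Zbtb38 gave 0.44 at its brightest probe and -1.07 at another, and Uhrf2, a relative of Uhrf1, differed by -0.19.

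Partners that recruit or assist the methyltransferases differed by less than 2-fold. Of 10 measured, 8 were higher by any amount, beside 59.6% of all gene names, with a median of 0.21, beside 0.08 over all gene names, that was below 0 only with spike-in controls as the centre. Cdca7, which works with the remodeller Hells to open chromatin for methylation, was 1.49-fold higher, and Hells itself differed by 0.26. The histone methyltransferase genes Ehmt2 and Suv39h1 differed by 0.43 and 0.33. Dppa3, an oocyte factor that keeps Uhrf1 off chromatin, was not well above background on either array.

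Among genes of the repair steps that complete active demethylation, 1 of 12 measured passed 2-fold. Gadd45g, a stress-induced gene linked to demethylation and to MAP kinase signalling, had a scaled value of 2.93 in wild-type and 5.26 in the array labelled Nr4a-TKO at its only probe. This is 5.04-fold higher, and at least 4.17-fold in every setting. Its relatives Gadd45a and Gadd45b differed by -0.21 and -0.07. The glycosylase gene Tdg, which removes oxidised methylcytosine, differed by 0.21, and its 3 probes ran from -0.17 to 0.29. The deaminase gene Apobec1 was 1.86-fold higher, the repair endonuclease gene Apex1 1.47-fold higher and Apobec3 differed by 0.30 at its brightest probe, with its 3 probes from -0.57 to 0.60. The list had a median of 0.22, with 10 genes higher and 2 lower, and its sign turned with spike-in controls as the centre. Over all gene names the median was 0.08, with 59.6% higher by any amount and 3.15% at least 2-fold higher.

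In the supply of TET cofactors, 1 of 12 genes passed 2-fold. Slc23a2, a transporter of ascorbate, which TET enzymes need to keep their iron reduced, was lower by 3.22-fold at its brighter probe, from a scaled value of 0.46 in wild-type to -1.22. Its second probe was also lower, at -0.85, and over the alternatives the gene ranged from -1.27 to -1.96. Cxxc4, whose protein binds Tet2 and lowers its level, was 1.72-fold lower at its brightest probe but dim, and 0.22 at another, and over the alternatives it came as near to 0 as -0.17. Idh1, whose enzyme makes the TET cosubstrate 2-oxoglutarate, differed by 0.59 and was dim, while the mitochondrial Idh2 differed by 0.22. The list had a median of 0.15, with 9 genes higher and 3 lower, and turned with spike-in controls as the centre. Over all gene names the median was 0.08, with 59.6% higher by any amount and 3.06% at least 2-fold lower.

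The genes listed around the supply of the methyl donor S-adenosylmethionine had the highest median of the enzyme lists, 0.29. This median was above 0 in every setting, down to 0.018. Of 11 genes, 8 were higher and 3 lower, with 3 past 1.5-fold higher. Over all gene names 59.6% were higher by any amount, 8.37% past 1.5-fold higher and 3.06% past 2-fold lower, with a median of 0.08. Ahcy, which clears the inhibitory product of methylation, was 1.64-fold higher, with all 3 of its probes higher, and the mitochondrial serine enzyme gene Shmt2 was 1.62-fold higher. The folate carrier gene Slc19a1 was 1.44-fold higher and Shmt1 1.43-fold. Mat2a, which makes S-adenosylmethionine itself, lay the other way at -0.27 on its brighter probe and -0.24 on the other. Ahcyl2, an Ahcy-like gene not shown here to act in methyl donor supply, was the listed gene past 2-fold. It was lower by 2.73-fold at its brightest probe, although its 3 probes ran from -1.45 to 0.12 and their mean was within 2-fold.

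**Figure D4:**
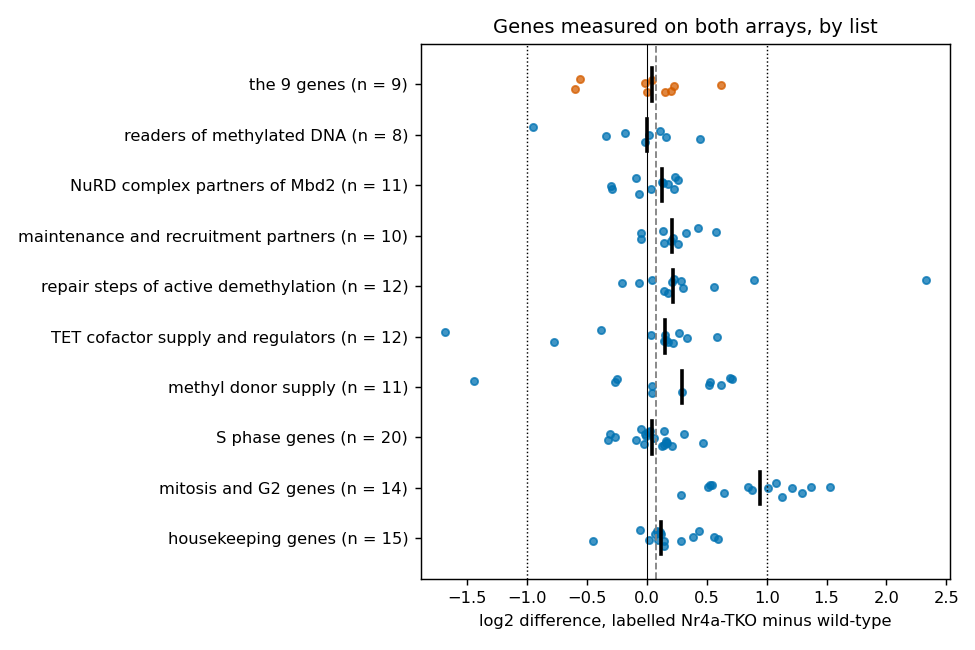
Log2 difference between the arrays (x axis, labelled Nr4a-TKO minus wild-type) for each gene measured on both arrays, by list (y axis), with a black bar at the median, a dashed line at the median of all gene names and dotted lines at 2-fold. The 9 genes centre on 0.04 and the S phase genes on 0.04, the mitosis and G2 genes on 0.94, and Gadd45g stands at 2.33.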

How the data were processed

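Per the file headers, the authors read spot intensity with Agilent Feature Extraction 10.10.1.1, which detrended the signals within each array, and the array was annotated on mm9. A second deposited table held log2 values that differ from the logged scanner signal by a fixed offset on each array (SD 0.00029 over single-spot probes); its scaling rule stays unknown. The column medians were -3.54 and -3.53.

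Control spots and outlier spots (156 and 117) were left out, the processed signal was taken as log2, averaged over replicate spots and centred on the 75th percentile of the array's 55676 probes. By the scanner's call 66.0% (wild-type) and 63.9% of them were well above background, and 0 spots were saturated. The number of arrays limits the precision. The brightest probe over both arrays stood for each gene, which was counted if that probe passed the scanner's background call on each array. All 19 probes carried the same names through RefSeq accessions. Whether probes lie in coding or untranslated sequence was not analysed here. The scanner error is the software's modelled signal error, combined over both arrays.

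The genes, lists and rules were chosen with earlier results of these data known. All listed genes past 2-fold and up to 4 others with the largest difference were named, with all probes of the 9 genes. A few listed genes are counted in their lists but not reported here by name. Others (Pcna, Hells, Tdg, Gadd45b, Idh2, Mat2a, Dppa3, Cd79b, Mpo, Ly6g, Elane, Cpa3, S100a8, S100a9, Hba-a1, Hbb-b1, Klrd1, Cd8b1, Cd8a, Ncr1, Prf1, Klrb1c, Xist, Ddx3y) were named after their values were seen. With 2 arrays no gene could be named for a like pattern. Alternatives were normexp (offset 50), other centres and normalizations, the deposited table, the mean over probes, other filters and folds, and accession names. The counting step was tested on simulated data. Python 3.11.15, numpy 2.4.6, pandas 2.3.3, matplotlib 3.10.9, R 4.3.3 and limma 3.58.1 were used.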

Additional observations from a re-analysis of the deposited data

How the results depend on the processing

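Dnmt3a, Dnmt3b and Tet2 kept their direction under all 12 alternatives in value. Not all of these are separate checks. The filters and accession names left these values unchanged, and the deposited table holds the same signals at a fixed offset on each array. The count of 0 genes past 2-fold held in each alternative in value, and became 1 higher and 1 lower at 1.5-fold. The median of the 9 genes, 0.042, was -0.043 with quantile normalization, -0.23 with spike-in controls as the centre, -0.075 with housekeeping genes as the centre and -0.048 with loess. Over all gene names, 738 names were higher and 717 lower. With normexp these were 474 and 454. Centring on spike-in controls lowers every difference by 0.27 and gave 449 and 1244. Dropping the background filter gave 1980 and 1828. A size of 1.5-fold gave 1959 and 1725, and one of 3-fold gave 288 and 282. The filter, threshold and centring counts move by construction; for normexp the cause was not tested. That centring left 26.5% of the called names higher against 50.7% in the main setting. No replicate could be left out, and the slide could not be a block. No paired analysis was possible because each genotype has 1 array. Dim probes, Dnmt3l above all, limit what can be read.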
